A study of Mus musculus with 9 samples.

Results

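The complement genes of this series were 9 genes matched by gene name in the count and FPKM tables, out of 54532 genes listed: C1ra, C1s1, C4b, C3, Cfb, Cfd, Serping1, Cd55 and Cd59a. They were examined by RNA sequencing in 3T3-L1, a mouse fibroblast line that can be turned into adipocytes in culture, with 3 libraries in each of 3 groups. The undifferentiated group (Undifferentiated) was kept confluent for 3 days and received no inducer. The differentiated group (Differentiated) was then stimulated for 3 days with 1 µM dexamethasone, 0.5 mM IBMX, 1 µM rosiglitazone and 10 µg/mL insulin in medium with 800 µM added lysine, and the lysine-free group (Lysfree) received the same inducers with 0 µM added lysine. As the study's methods describe it, induction also replaced calf serum by fetal bovine serum and changed the basal medium. The medium and day of harvest of the undifferentiated cultures are not stated, so serum, medium and days in culture may differ between the groups. Any effects of these and of the inducers cannot be told apart in comparisons with Undifferentiated. The study's methods also describe 3 days in a maintenance medium with insulin after induction, when the lysine-free treatment had ended. They place the collection of cells for RNA after differentiation, and Oil-Red O staining after the maintenance period. The sequenced cultures are not described separately there. All libraries came from 1 line, and nothing in the sources states that the 3 libraries of a group were separate cultures, so p-values measure only the spread between these samples.

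Complement is a cascade of plasma proteins that tags and lyses cells and recruits leukocytes. In the classical route the proteases C1r and C1s, bound to C1q, cleave C4 and C2, and in the alternative route factor D cleaves factor B to form the enzyme that cleaves C3. C1 inhibitor (Serping1) blocks C1r and C1s, Cd55 dissociates the C3-cleaving enzymes at the cell surface, and Cd59a blocks assembly of the pore. Adipose tissue is a well-known source of factor D, which was described in adipocytes as adipsin, and of C3, whose fragment C3adesArg is also called acylation-stimulating protein. Fibroblasts are known to make C1r, C1s and C3.

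Levels are given in FPKM, fragments scaled by gene length and library size, so they can be compared between genes. Fold changes came from edgeR on the counts, with Benjamini-Hochberg adjustment over every gene that had at least 1 count among the 6 libraries compared. A gene is said to rise or fall where its adjusted p was under 0.05, and a differentially expressed gene (DEG) also changed at least 2-fold. Libraries held 15880144 to 21806693 counted fragments, so a count of 3 equalled at most 0.189 CPM. Lysfree library 1 stood apart from the other Lysfree libraries, with a chi-square per degree of freedom of 43.6 and 44.7 against them, compared with 2.76 between Lysfree 2 and 3 and 2.98 to 12.5 within the other groups. Where leaving it out changed a call or a direction of a gene described here, the value without it is given. The labels were checked by an adipocyte marker list, of which 12 of 12 genes were DEGs higher in Differentiated than Undifferentiated and 12 of 12 were DEGs lower in Lysfree than Differentiated. Of all genes tested, 10.4% and 10.5% were such DEGs in those comparisons. Of 8 fibroblast markers, 8 fell in Differentiated against Undifferentiated, where 23.2% of all genes fell. In Lysfree against Undifferentiated 5 fell and 2 rose (17.1% and 18.0% of all genes). In Lysfree against Differentiated 0 fell and 7 rose (18.8% and 19.7% of all genes). The summed level of the fibroblast markers was 4375 to 4804 FPKM in Undifferentiated, 1074 to 1090 FPKM in Differentiated and 2255 to 2287 FPKM in Lysfree. In bulk RNA, fewer cells of a type and less RNA per cell cannot be told apart.

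In Differentiated against Undifferentiated, 7 of the 9 genes fell, 0 rose and 2 did not pass, and the median log2 fold change was -1.79. Over all 24402 genes tested, 23.2% fell, 23.0% rose and the median was 0.02. Of these, 5 members were DEGs lower and 0 were DEGs higher, against a background of 11.4% and 10.4%. In Lysfree against Undifferentiated, 7 members fell, each as a DEG, 0 rose and 2 did not pass, with a median of -2.92. Over 23994 genes tested the background was 17.1% falling and 18.0% rising, 8.76% DEGs lower and 5.52% DEGs higher, with a median of -0.02. In Lysfree against Differentiated the members divided: 3 fell, 2 rose and 4 did not pass, with 2 DEGs lower and 1 DEG higher and a median of -0.82. There the background over 24130 genes was 18.8% falling, 19.7% rising, 10.5% DEGs lower and 8.14% DEGs higher, with a median of -0.06. Without Lysfree 1, 7 fell and 0 rose in Lysfree against Undifferentiated, and 4 fell and 2 rose in Lysfree against Differentiated, the addition being Cd59a. The comparisons share libraries in pairs and are not independent of each other. Summed over the 9 genes, the level was 420.0 to 446.9 FPKM in Undifferentiated, 214.6 to 228.8 FPKM in Differentiated and 45.16 to 55.37 FPKM in Lysfree, with no overlap.

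**Figure D1:**
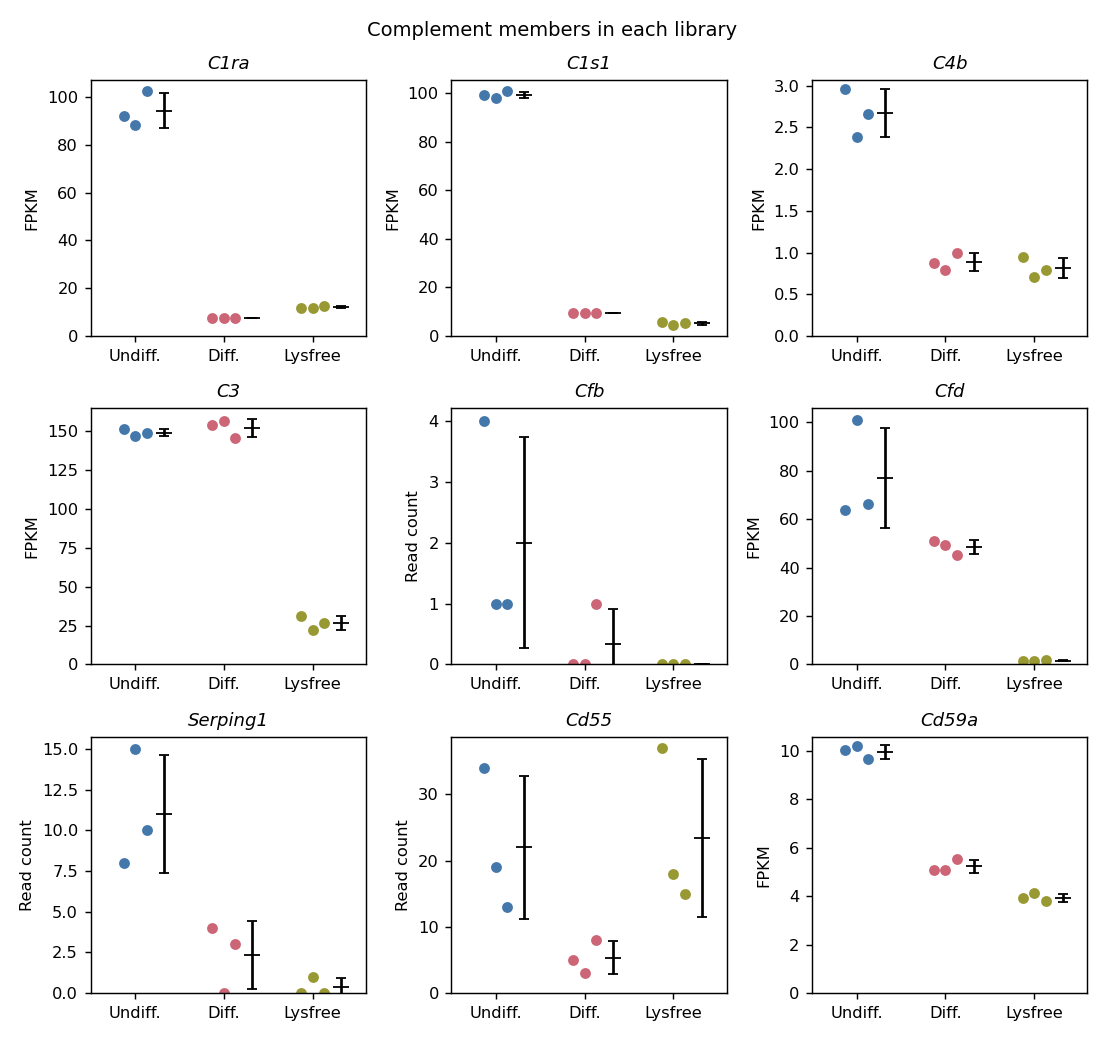
Each panel shows 1 of the 9 genes, with a point for each library, the group mean as a bar and the SD (n = 3) as whiskers. The y axis is FPKM, or the read count for Cfb, Serping1 and Cd55, where whiskers are truncated at 0. C1ra and C1s1 are high in Undifferentiated alone, whereas C3 stays near 150 FPKM in Undifferentiated and Differentiated (means 149 and 152.1) and lies between 22.12 and 31.07 FPKM in Lysfree.

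The sequences upstream of 3 members are shown because C3 and Cfd carried the largest falls that passed in Lysfree against Differentiated, and C1s1 was the initiating protease among the 9 members with the larger fall in Lysfree against Undifferentiated. Each line gives the 250 bases before the RefSeq transcription start on GRCm38.p6, 5′ to 3′ on the strand of the gene, and capitals mark a match to the C/EBP motif. C3 lies upstream at chr17:57228137-57228386 (minus strand), Cfd at chr10:79890603-79890852 (plus strand) and C1s1 at chr6:124542360-124542609 (minus strand), for the C1s1 start that equals the gene end in the deposited annotation.
C3: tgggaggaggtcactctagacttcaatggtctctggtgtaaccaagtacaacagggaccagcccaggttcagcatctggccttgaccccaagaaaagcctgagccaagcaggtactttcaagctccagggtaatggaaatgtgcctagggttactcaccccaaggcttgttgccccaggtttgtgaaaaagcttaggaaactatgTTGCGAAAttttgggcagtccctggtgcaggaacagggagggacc
Cfd: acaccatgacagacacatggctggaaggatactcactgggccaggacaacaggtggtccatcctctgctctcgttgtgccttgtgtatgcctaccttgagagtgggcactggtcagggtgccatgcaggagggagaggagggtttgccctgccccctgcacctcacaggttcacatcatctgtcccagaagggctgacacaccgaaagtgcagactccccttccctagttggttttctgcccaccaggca
C1s1: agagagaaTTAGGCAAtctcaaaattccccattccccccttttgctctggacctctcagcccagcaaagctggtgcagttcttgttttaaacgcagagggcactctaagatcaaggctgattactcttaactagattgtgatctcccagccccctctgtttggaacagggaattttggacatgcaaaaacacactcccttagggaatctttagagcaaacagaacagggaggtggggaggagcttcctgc
The motifs searched on both strands in 300-base windows (250 bases before and 50 from the start) were STAT TTCNNNGAA, C/EBP TTGCNNAA, glucocorticoid response element ACANNNTGT, cAMP response element TGACGTCA and its core TGACG, E-box CACGTG and the NF-kappaB consensus. Windows were found for 6 of the 9 genes. The C/EBP motif, bound by factors that act early and late in adipocyte differentiation, occurred in the windows of C3, C1s1 and C1ra, against 10.8% of all 32851 windows, and C1s1 has a second RefSeq start whose window held no match. In C3 it lay at -45 to -38 relative to the start, and in C1s1 at -242 to -235 on the opposite strand, while the C1ra matches to C/EBP and STAT (8.3% of windows) lay within the transcribed part. The cAMP core, which the full cAMP element contains, occurred in Cd55 (20.8% of windows), and the full element (1.79%) in none of the 6. The glucocorticoid response element (6.85%), E-box (7.15%) and NF-kappaB consensus (4.51%) also had no match in these windows. None of the 7 motifs matched in Cfd or Cd59a. A match is a description of letters and not of a bound site.

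The proteases that start the classical route were high in Undifferentiated and low after induction with or without lysine. C1ra (ENSMUSG00000055172, mm10 chromosome 6, 124512405 to 124523443, plus strand, 11 exons) encodes C1r, the protease that activates itself and then C1s. It measured 92.15, 88.29 and 102.5 FPKM in the 3 Undifferentiated libraries, 7.589, 7.565 and 7.559 FPKM in Differentiated, and 11.91, 11.87 and 12.46 FPKM in Lysfree. The 3 groups did not overlap, and Differentiated was the lowest. C1ra fell 12.7-fold in Differentiated against Undifferentiated (log2 fold change -3.66, SE 0.07; the adjusted p in edgeR was too small to be held as a number). In Lysfree against Undifferentiated it fell 7.55-fold (log2 -2.92, SE 0.11, edgeR adjusted p = 1.02e-20). Lysfree was 1.67-fold above Differentiated (log2 0.74, SE 0.11, edgeR adjusted p = 1.16e-05), which passed the test but not the 2-fold threshold.

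C1s1 (ENSMUSG00000038521, chromosome 6, 124530345 to 124542359, minus strand, up to 12 exons) encodes C1s, which cleaves C4 and C2. It lies 6901 bases from C1ra. The 3 Undifferentiated libraries held 98.98, 97.86 and 100.6 FPKM, the Differentiated libraries 9.626, 9.472 and 9.398 FPKM, and the Lysfree libraries 5.601, 4.642 and 5.237 FPKM. Here Lysfree was the lowest group, again with no overlap between groups. The fall was 10.6-fold in Differentiated (log2 -3.41, SE 0.06, adjusted p too small to be held) and 18.6-fold in Lysfree (log2 -4.22, SE 0.11, edgeR adjusted p = 4.86e-24), both against Undifferentiated. Between the induced groups C1s1 moved the opposite way to C1ra, 1.76-fold lower in Lysfree (log2 -0.82, SE 0.12, edgeR adjusted p = 1.04e-05).

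The level of C1ra relative to C1s1 therefore differed by group. The ratio of their FPKM was 0.931, 0.902 and 1.02 in Undifferentiated, 0.788, 0.799 and 0.804 in Differentiated, and 2.13, 2.56 and 2.38 in Lysfree. The mean ratio in Lysfree (2.36 ± 0.216, SD, n = 3) was 2.96 times that in Differentiated (0.797 ± 0.00819, SD, n = 3). The groups did not overlap, and an exact two-sided permutation test gave p = 0.1, the smallest that 3 against 3 libraries allow. The neighbouring paralogs C1rb and C1s2 encode further copies of the same proteases. C1rb averaged 51.36 FPKM in Undifferentiated, 4.245 FPKM in Differentiated and 6.702 FPKM in Lysfree, and C1s2 averaged 12.59, 1.198 and 0.5915 FPKM in the same order. C1rb fell in both induced groups and rose 1.65-fold in Lysfree against Differentiated (log2 0.72, SE 0.16, edgeR adjusted p = 0.000723), or 1.43-fold without Lysfree 1. C1s2 fell in both as well and was 1.93-fold lower in Lysfree than Differentiated (log2 -0.95, SE 0.25, edgeR adjusted p = 0.00399), or 2.04-fold without Lysfree 1, which makes it a DEG. The C1rb to C1s2 ratio averaged 4.09, 3.55 and 11.3 in Undifferentiated, Differentiated and Lysfree. C1ra and C1rb, and C1s1 and C1s2, are close copies, so the division of reads within each pair is uncertain. With paralog counts summed, C1ra and C1s1 kept their direction and call in each of the 3 comparisons.

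**Figure D2:**
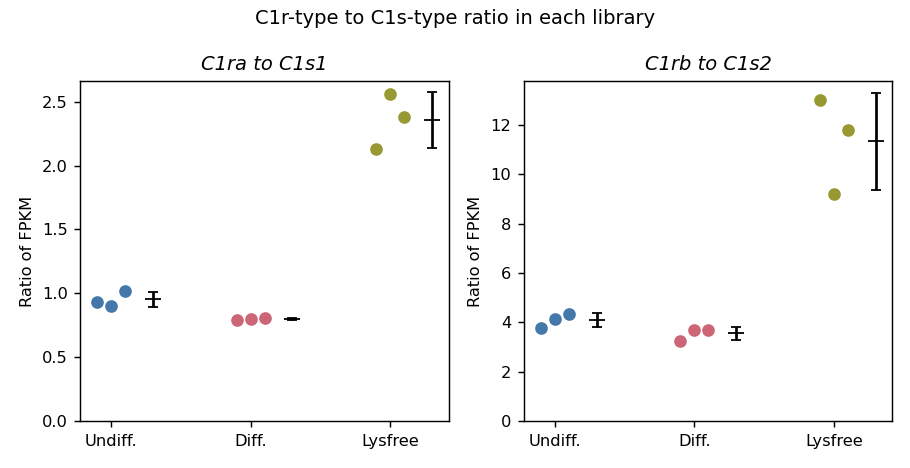
The y axis is the ratio of FPKM, C1ra to C1s1 on the left and C1rb to C1s2 on the right, with a point for each library and the mean and SD (n = 3) beside it. Lysfree lies above both other groups in each panel, at 2.13 to 2.56 for C1ra to C1s1.

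C4b (ENSMUSG00000073418, chromosome 17, 34728380 to 34743882, minus strand, up to 41 exons), the complement component cleaved by C1s, was lower in both induced groups than in Undifferentiated. Undifferentiated libraries held 2.959, 2.386 and 2.665 FPKM, Differentiated libraries 0.8739, 0.792 and 1 FPKM, and Lysfree libraries 0.9492, 0.709 and 0.7872 FPKM. Both induced groups lay below Undifferentiated without overlap and overlapped each other. The fall was 1.62 on the log2 scale in Differentiated (-1.62, SE 0.14, edgeR adjusted p = 3.43e-31) and -1.67 in Lysfree (SE 0.18, edgeR adjusted p = 1.61e-09). Lysfree against Differentiated gave -0.06 (95% interval -0.47 to 0.35, edgeR adjusted p = 0.83). The interval of the ratio ran from 0.721 to 1.28, so a change of that size is not excluded. C4a, the adjacent copy 65209 bases away, averaged 0.5108, 0.5104 and 0.3631 FPKM in the same order and passed no test. The sum of C4b and C4a fell less than C4b alone, by 1.18 on the log2 scale in Differentiated and 1.37 in Lysfree against Undifferentiated.

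C3 (ENSMUSG00000024164, chromosome 17, 57203970 to 57228136, minus strand, up to 41 exons), the protein on which all complement routes converge, was the most abundant of the 9 genes in each group. It measured 151.4, 146.7 and 148.8 FPKM in Undifferentiated, 154.1, 156.7 and 145.5 FPKM in Differentiated, and 31.07, 22.12 and 26.71 FPKM in Lysfree. Undifferentiated and Differentiated overlapped, and the Lysfree libraries lay far below both. The log2 fold change in Differentiated against Undifferentiated was 0.003 (95% interval -0.09 to 0.10, edgeR adjusted p = 0.963), so the interval of the ratio ran from 0.939 to 1.07. In Lysfree, C3 fell 5.42-fold against Undifferentiated (log2 -2.44, SE 0.11, edgeR adjusted p = 1.51e-18) and 5.47-fold against Differentiated (log2 -2.45, SE 0.10, edgeR adjusted p = 6.61e-14). Among the 6 members at 1 FPKM or more in any group, C3 was the 1 gene that passed no test on differentiation with lysine.

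Cfd (ENSMUSG00000061780, chromosome 10, 79890853 to 79892655, plus strand, up to 5 exons), adipsin or factor D, fell modestly with differentiation and to a low level without lysine. It measured 63.88, 100.9 and 66.31 FPKM in Undifferentiated, 50.82, 49.15 and 45.39 FPKM in Differentiated, and 1.481, 1.479 and 1.9 FPKM in Lysfree. The Lysfree values came from 24, 26 and 34 counts. The groups did not overlap, and Undifferentiated 2 lay above the other Undifferentiated libraries. Cfd was 1.63-fold lower in Differentiated than Undifferentiated (log2 -0.70, SE 0.07, edgeR adjusted p = 7.25e-23), and without Undifferentiated 2 the log2 fold change was -0.45 (edgeR adjusted p = 4.54e-10). The edgeR test in this comparison pooled the variance over genes, so its SE and p do not reflect the spread of Cfd alone. That spread was an SD of 20.69 FPKM in Undifferentiated (n = 3). Across the edgeR, DESeq2 and limma alternatives the adjusted p reached 0.0325. It fell 45.8-fold in Lysfree against Undifferentiated (log2 -5.52, SE 0.19, edgeR adjusted p = 3.32e-21) and 28.4-fold against Differentiated (log2 -4.83, SE 0.16, edgeR adjusted p = 1.31e-15). These were the largest falls among the members at 1 FPKM or more.

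The adipocyte markers did not follow Cfd across all 3 groups. Adipoq, the adipokine adiponectin, measured 47.307, 74.147 and 52.002 FPKM in Undifferentiated, 947.07, 914.45 and 936.1 FPKM in Differentiated, and 3.9556, 3.6071 and 4.9626 FPKM in Lysfree. It rose 15.8-fold in Differentiated against Undifferentiated while Cfd fell, and both fell in Lysfree against either group. Undifferentiated 2 was also the highest of its group for Adipoq and for the summed adipocyte list (413.4 FPKM, against 328.3 and 347 FPKM in the others). Fabp4, a fatty acid-binding protein of adipocytes, averaged 44.12 FPKM in Undifferentiated, 2445 FPKM in Differentiated and 36.74 FPKM in Lysfree. Lysfree and Undifferentiated overlapped for Fabp4. In Lysfree against Undifferentiated, where Cfd fell 45.8-fold, 8 of the 12 adipocyte markers fell, 2 rose and 2 did not pass. There 17.1% of all genes fell and 18.0% rose. Without Lysfree 1, 9 of the markers fell, with Fabp4 added. Retn, the adipokine resistin, went from 153 to 293 counts in Undifferentiated to 0 or 1 count in Lysfree, and Slc2a4, the insulin-responsive glucose transporter, from 9 to 31 counts to 0 or 1, whereas Cd36, a fatty acid transporter, rose 4.53-fold (edgeR adjusted p = 3.87e-15). The part of these markers in the Cfd level was not tested.

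**Figure D3:**
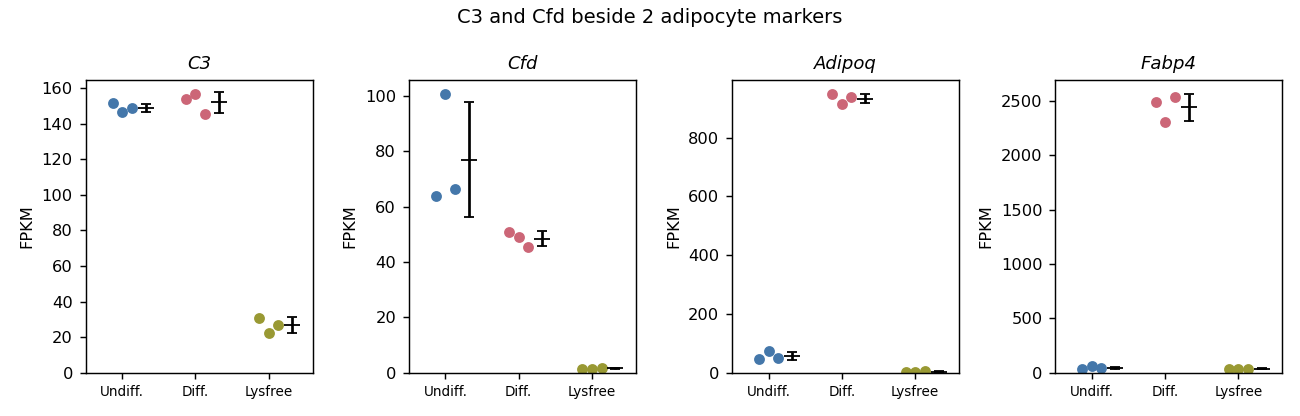
FPKM of C3, Cfd, Adipoq and Fabp4, with a point for each library and the mean and SD (n = 3) beside it. Adipoq and Fabp4 are high in Differentiated alone, C3 is high in both Undifferentiated and Differentiated, and Cfd is highest in Undifferentiated at 63.88 to 100.9 FPKM.

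The balance of C3 to the other components also shifted. The C3 to Cfd ratio of FPKM was 2.37, 1.45 and 2.24 in Undifferentiated, 3.03, 3.19 and 3.21 in Differentiated, and 21, 15 and 14.1 in Lysfree. The C3 to C4b ratio was 51.2, 61.5 and 55.9 in Undifferentiated, 176, 198 and 146 in Differentiated, and 32.7, 31.2 and 33.9 in Lysfree. C3 thus exceeded C4b most in Differentiated, and Cfd most in Lysfree. For both ratios the 3 groups did not overlap, and each pair of groups gave p = 0.1 in the exact two-sided permutation test, the floor of that design.

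Cfb (ENSMUSG00000090231, chromosome 17, 34856374 to 34862518, minus strand), factor B, which factor D cleaves, was at the limit of detection. Its counts were 4, 1 and 1 in Undifferentiated, 0, 0 and 1 in Differentiated, and 0, 0 and 0 in Lysfree. The edgeR adjusted p was 0.347 for Differentiated and 0.13 for Lysfree against Undifferentiated and 0.501 between the induced groups. A difference was not detectable at this depth, and no fold is given. In the same libraries C3 was at 22.12 FPKM or more.

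The inhibitors among the members averaged lower FPKM than C3, C1ra and C1s1 in each group. Serping1 (ENSMUSG00000023224, chromosome 2, 84765387 to 84775444, minus strand), C1 inhibitor, had 8, 15 and 10 counts in Undifferentiated, 4, 0 and 3 in Differentiated, and 0, 1 and 0 in Lysfree. Both induced groups lay below Undifferentiated without overlap. The log2 fold change in Differentiated was -1.96 (SE 0.72, edgeR adjusted p = 0.0159), a call lost without Undifferentiated 2 (adjusted p = 0.0825), Undifferentiated 3 (0.0524) or Differentiated 2 (0.146), and with DESeq2 (0.0702). In Lysfree, Serping1 was at least 3.31-fold lower than Undifferentiated, taking 3 counts per library as the floor (edgeR adjusted p = 0.000548). Lysfree against Differentiated did not pass (adjusted p = 0.227).

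Cd55 (ENSMUSG00000026399, chromosome 1, 130439027 to 130462744, minus strand), decay-accelerating factor, was, with C1ra, 1 of 2 members that were lower in Differentiated than in both other groups. Its counts were 34, 19 and 13 in Undifferentiated, 5, 3 and 8 in Differentiated, and 37, 18 and 15 in Lysfree, which is 0.03319 to 0.4338 FPKM. Differentiated did not overlap the other groups, and these overlapped each other. Cd55 fell 3.45-fold in Differentiated against Undifferentiated (log2 -1.79, SE 0.48, edgeR adjusted p = 0.000534) and was 4.05-fold higher in Lysfree than Differentiated (log2 2.02, SE 0.51, edgeR adjusted p = 0.00285). Without Lysfree 1, the highest of its group, the latter was 1.45 on the log2 scale (edgeR adjusted p = 0.0206), and limma on log2(FPKM + 1) and on log2(FPKM + 0.1) did not call it (adjusted p = 0.0884 and 0.0594). Lysfree against Undifferentiated gave 0.24 (95% interval -0.56 to 1.05, edgeR adjusted p = 0.661), and -0.34 without Lysfree 1. Its copy Cd55b had 0 counts in each of the 9 libraries.

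Cd59a (ENSMUSG00000032679, chromosome 2, 104095801 to 104115354, plus strand), which blocks the membrane attack pore, was the most abundant of the 3 inhibitors among the members. It measured 10.06, 10.22 and 9.655 FPKM in Undifferentiated, 5.068, 5.099 and 5.538 FPKM in Differentiated, and 3.928, 4.111 and 3.784 FPKM in Lysfree. The groups were ordered Undifferentiated, Differentiated, Lysfree, with no overlap. Cd59a fell 1.94-fold in Differentiated (log2 -0.96, SE 0.11, edgeR adjusted p = 4.55e-16), just under the 2-fold threshold, and -1.29 on the log2 scale in Lysfree (SE 0.15, edgeR adjusted p = 1.98e-08), both against Undifferentiated. Lysfree against Differentiated was -0.34 (95% interval -0.67 to -0.02) with an edgeR adjusted p of 0.0935, and 0.0311 without Lysfree 1. The copy Cd59b had at most 4 counts in a library and passed no test.

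**Figure D4:**
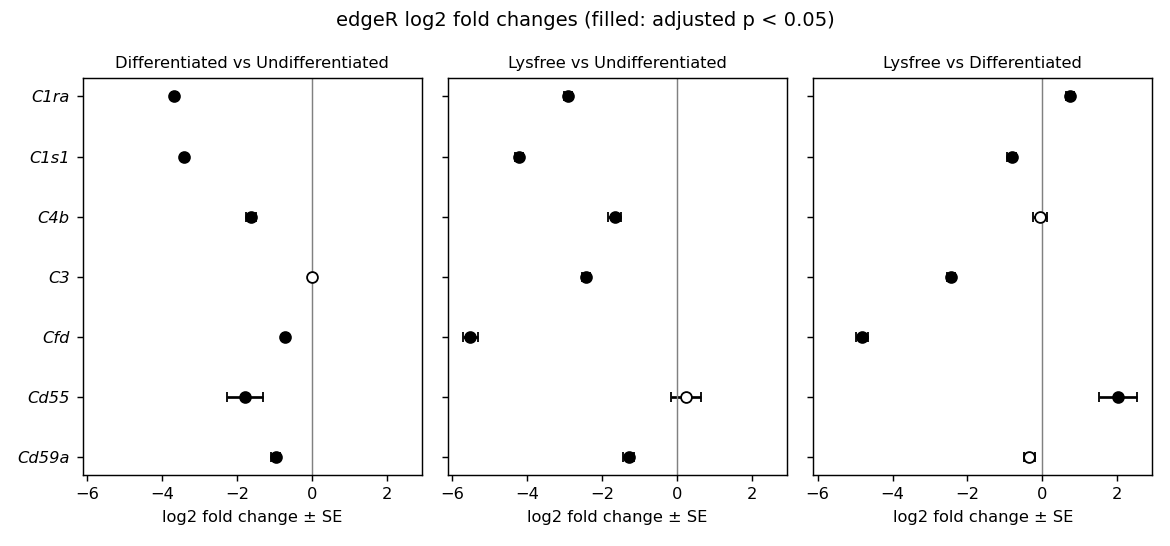
The x axis is the edgeR log2 fold change with its SE for 7 of the 9 genes in the 3 comparisons, leaving out Cfb and Serping1, whose counts reach 0. Filled points passed an adjusted p under 0.05. C1ra and Cd55 lie to the right of 0 in Lysfree vs Differentiated (0.74 and 2.02), while C3 and Cfd lie at -2.45 and -4.83.

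Of 43 other complement genes in the lists, 15 had 0 counts in each of the 9 libraries, a further 9 had at most 3 counts in any library, and 9 reached a mean of 1 FPKM in a group. Among 15 genes of initiation, 9 were tested in each comparison. In Differentiated against Undifferentiated 4 fell and 0 rose (23.2% and 23.0% of all genes), in Lysfree against Undifferentiated 2 fell and 1 rose (17.1% and 18.0%), or 3 and 1 without Lysfree 1, and in Lysfree against Differentiated 2 fell and 2 rose (18.8% and 19.7%). C1qa, C1qb and C1qc, the chains of the C1q subunit that C1r and C1s attach to, had 0 counts throughout, as had the mannose-binding lectins Mbl1 and Mbl2. Masp1, a protease of the lectin route, measured 9.589, 8.61 and 9.5517 FPKM in Undifferentiated, 1.262, 1.4306 and 1.3221 FPKM in Differentiated, and 36.793, 34.358 and 33.277 FPKM in Lysfree. The groups did not overlap, and Lysfree was the highest. Masp1 fell 7.02-fold in Differentiated (log2 -2.81, SE 0.08, edgeR adjusted p = 1.03e-260) and rose 3.89-fold in Lysfree (log2 1.96, SE 0.10, edgeR adjusted p = 5.73e-17) against Undifferentiated, and was 27.1-fold higher in Lysfree than Differentiated (edgeR adjusted p = 2.47e-18). It thus moved opposite to C1s1 in Lysfree against either group. Masp2, a related protease, averaged 2.3, 2.905 and 1.792 FPKM and passed in Lysfree against Differentiated alone, lower by 1.54-fold (edgeR adjusted p = 0.044) or by 1.26-fold without Lysfree 1 (0.0435). That library held 0.91196 FPKM and the others 2.1723 and 2.2905 FPKM.

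Of 8 genes of the alternative and terminal steps, 4 or 5 were tested: none passed in Differentiated against Undifferentiated (edgeR, 0 of 4), and 2 fell and 0 rose in Lysfree against each other group, where 17.1% and 18.8% of all genes fell. Cfp, properdin, which stabilises the alternative C3-cleaving enzyme, averaged 7.258, 6.454 and 3.983 FPKM in Undifferentiated, Differentiated and Lysfree. It was 1.76-fold lower in Lysfree than Undifferentiated (edgeR adjusted p = 0.000589) and 1.54-fold lower than Differentiated (0.0121), or 1.55-fold and 1.35-fold without Lysfree 1. C8g, the gamma chain of C8, averaged 3.222, 2.623 and 0.7419 FPKM and was 4.21-fold and 3.37-fold lower in Lysfree against the same groups (edgeR adjusted p = 4.36e-07 and 5.29e-05), while C8a and C8b, its partner chains, had 0 counts in all 9 libraries.

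Of 11 other regulators, 8 were tested in Differentiated against Undifferentiated, of which 3 fell and 0 rose (23.2% and 23.0% of all genes). In each comparison with Lysfree 7 were tested: 2 fell and 1 rose against Undifferentiated (17.1% and 18.0% of all genes), and 1 fell and 2 rose against Differentiated (18.8% and 19.7%). Clu, clusterin, a fluid-phase inhibitor of the pore, averaged 4.784, 4.014 and 1.348 FPKM and fell 2.85-fold in Lysfree against Differentiated (log2 -1.51, SE 0.16, edgeR adjusted p = 1.16e-07). Cr1l, the rodent membrane regulator Crry, which inhibits C3 activation as Cd55 does, measured 4.5169, 3.8283 and 4.3627 FPKM in Undifferentiated, 3.7097, 3.6836 and 3.2482 FPKM in Differentiated, and 17.386, 11.876 and 12.229 FPKM in Lysfree. It rose 4.07-fold in Lysfree against Differentiated (log2 2.02, SE 0.13, edgeR adjusted p = 3.02e-11) and 3.37-fold against Undifferentiated (log2 1.75, SE 0.12, edgeR adjusted p = 1.38e-13), or 3.51-fold and 2.89-fold without Lysfree 1. In Differentiated against Undifferentiated Cr1l was lower by 1.22-fold (edgeR adjusted p = 0.000844). Of 9 receptor genes, 1 rose and 1 fell of 6 tested in Differentiated against Undifferentiated, 0 rose and 1 fell of 5 tested in Lysfree against Undifferentiated, and 1 rose and 1 fell of 6 tested in Lysfree against Differentiated, beside the same all-gene shares. Itgb2, the beta chain of the leukocyte integrins that include complement receptor 3, averaged 4.297, 0.4961 and 2.195 FPKM, with 20 to 34 counts in Differentiated. It fell 8.66-fold in Differentiated against Undifferentiated (edgeR adjusted p = 1.73e-65). In Lysfree it was 4.58-fold above Differentiated (edgeR adjusted p = 6.99e-08) and 1.89-fold below Undifferentiated (edgeR adjusted p = 5.96e-05). Its partner Itgam had 0 counts in all libraries. The leukocyte list summed to 6.69 to 9.035 FPKM in Undifferentiated, 8.757 to 9.772 FPKM in Differentiated and 8.802 to 10.83 FPKM in Lysfree, most of it from Cd14 and Cd68, with the pan-leukocyte gene Ptprc at no more than 1 count in a library and the macrophage gene Adgre1 at 0.

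**Figure D5:**
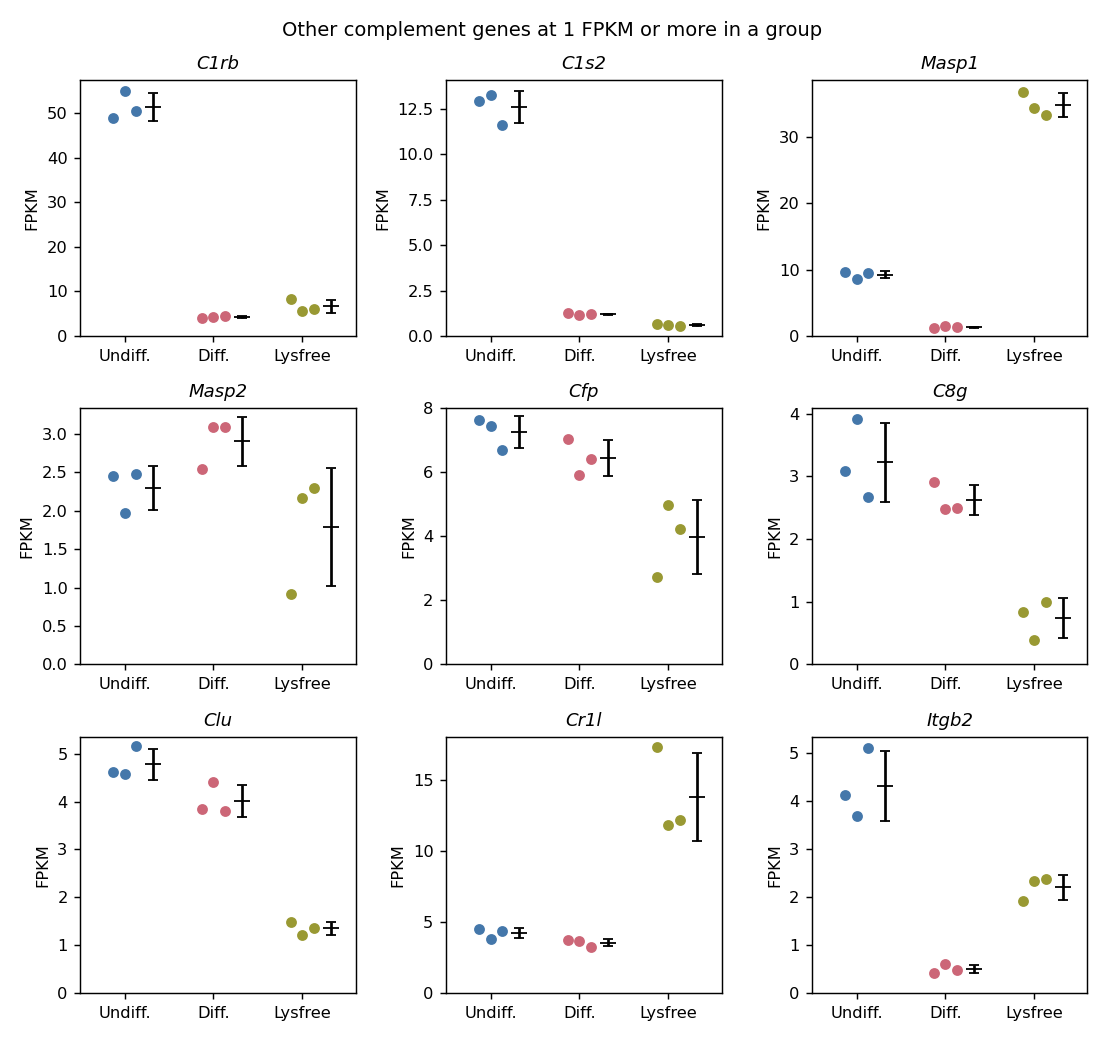
FPKM of the 9 other complement genes that reached a mean of 1 FPKM in a group, with a point for each library and the mean and SD (n = 3) beside it. Masp1 (33.277 to 36.793 FPKM) and Cr1l (11.876 to 17.386 FPKM) are highest in Lysfree, and C1rb and C1s2 are high in Undifferentiated alone.

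Complement genes are often grouped with acute-phase and cytokine genes, and a list of 21 of these was set beside the members. Of the 21, 7 rose and 11 fell in Differentiated against Undifferentiated, where 23.0% and 23.2% of all genes did. In Lysfree against Differentiated 13 rose and 5 fell (19.7% and 18.8% of all genes), and in Lysfree against Undifferentiated 8 rose and 5 fell (18.0% and 17.1%). Without Lysfree 1 these counts were 15 and 5, and 10 and 7. Il6, the cytokine interleukin-6, averaged 0.245, 0.3283 and 4.506 FPKM in Undifferentiated, Differentiated and Lysfree and rose 14.2-fold in Lysfree against Differentiated (edgeR adjusted p = 1.83e-11). Osmr, the oncostatin M receptor, averaged 8.979, 7.672 and 25.12 FPKM. Hp, haptoglobin, averaged 1.77, 35.11 and 0.6275 FPKM, and Serpina3n, an acute-phase protease inhibitor, averaged 16.3, 49.65 and 7.026 FPKM, and both rose in Differentiated and fell in Lysfree. Orm1, another acute-phase gene of the list, shared that pattern at 3.483, 18.69 and 0.9943 FPKM. Orm2 passed no test, and Lcn2 and Saa3 did not share the pattern. Lcn2, lipocalin 2, averaged 3.875, 25.79 and 39.2 FPKM and rose 6.55-fold in Differentiated against Undifferentiated and a further 1.59-fold in Lysfree against Differentiated (edgeR adjusted p = 1.65e-05). Saa3, a serum amyloid gene under 1 FPKM in each group, was named after its values were seen. It fell in Differentiated against Undifferentiated (edgeR adjusted p = 2.44e-11), with 13 to 37 counts in Undifferentiated, 0 to 2 in Differentiated and 26 to 59 in Lysfree. No fold is given against the Differentiated counts, which are at the floor. Saa3 was higher in Lysfree than Differentiated (edgeR adjusted p = 2.04e-07). Against Undifferentiated, Lysfree did not pass (1.76-fold higher, edgeR adjusted p = 0.0507), but passed at 2.01-fold without Lysfree 1 (edgeR adjusted p = 0.00203).

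The genes whose pattern was most like that of a member were named by Pearson r of log2(FPKM + 1) over the 9 libraries, among 3988 genes, as a description only, since the libraries form 3 groups. This was done for the 6 members at 1 FPKM or more in any group, leaving out Cfb, Serping1 and Cd55. For C3 the nearest were Lgr4 and Adamts15 (r = 0.9955 each) and Cd302 (0.9948), and for Cfd they were AI464131 and Fcgrt (0.9959 each) and Smarcc2 (0.995). C1ra was most like Slc44a2 (0.9996), Anpep (0.9991) and Smoc2 (0.999), and C1s1 was most like Angpt4 and Postn (0.998 each) and its copy C1s2 (0.9978). For C4b they were Prokr1 (0.993), Slc2a10 (0.9926) and Atp13a2 (0.991), and for Cd59a Fam114a1 (0.9968), Cand2 (0.9955) and Ptn (0.9954).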

How the data were processed

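Gene counts and FPKM values per library were deposited by the authors, who prepared poly(A)-enriched libraries, sequenced paired ends and mapped reads to mm10 with HISAT2. Per the labels the submitters' processing notes name HISAT2 2.0.5 and featureCounts 1.5.0-p3, and the strand setting and annotation release are not given in the sources used here. The deposited counts were tested as deposited with edgeR 4.0.16 (quasi-likelihood F-test, TMM), separately for each pair of groups, in R 4.3.3. The deposited FPKM were used for levels and ratios. All 9 members were described. Other complement genes were named at a mean of at least 1 FPKM in a group, or as paralogs of a member, and other lists by counts. The members, lists and tests were chosen with earlier results of these data known. Alternatives were DESeq2 1.42.0, limma 3.58.1 on log2(FPKM + 1) or log2(FPKM + 0.1), other scalings and filters, a single fit of all libraries, a replicate block and leaving out each library. Summing paralog counts, and the fits of other genes without Lysfree 1, were added after seeing the data. Scripts were tested on simulated data with 200 changed genes per comparison. In Differentiated against Undifferentiated edgeR recovered 191 with 3 false DEG calls, and DESeq2 187 with 0. In Lysfree against Undifferentiated edgeR recovered 200 with 6 false calls, and DESeq2 198 with 2. In Lysfree against Differentiated edgeR recovered 198 with 17 false calls, and DESeq2 193 with 1. Promoters came from RefSeq. Precision is limited by counting for Cfb, Serping1 and Cd55, and for Cfd in Lysfree, where each library holds under 40 counts.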

Additional observations from a re-analysis of the deposited data

How the results depend on the processing

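Of 432 alternative values for the 27 member log2 fold changes, 410 kept the direction and side of the threshold, 6 lost and 6 gained a call, and 10 changed sign, none of them for a called value. C3 in Differentiated against Undifferentiated changed sign with library sizes alone (-0.0311), edgeR's expression filter (-0.000573) and at least 10 counts in every library (-0.00583), and ranged from -0.0176 to 0.0312 on leaving out a library. C4b in Lysfree against Differentiated was 0.0131 with library sizes alone and -0.198 to 0.0306 on leaving out a library. Cd55 in Lysfree against Undifferentiated ranged from -0.34 to 0.63. Serping1 in Differentiated lost its call with DESeq2 (-1.99) and ranged from -2.62 to -1.33. Cd59a in Lysfree against Differentiated passed with edgeR's filter (-0.38), at least 10 counts (-0.40), limma (-0.34 with +1, with or without a minimum of 1 FPKM, and -0.40 with +0.1), and ranged from -0.38 to -0.30. Cd55 there lost its call in limma (0.24 with +1 and 1.06 with +0.1). Over genes with at least 10 counts, the median log2 fold change in Lysfree against Differentiated was 0.06 with TMM and 0.13 with library sizes alone.

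The 5329 DEGs of Differentiated against Undifferentiated became 3488 with at least 10 counts, 2726 and 2747 in limma (all genes, and a minimum of 1 FPKM) and 11260 with no fold threshold, and member DEGs went from 5 to 3, 2 and 2. The 3426 DEGs of Lysfree against Undifferentiated became 2244, 1474, 1503 and 8428, and the 4507 of Lysfree against Differentiated 2891, 2198, 2223 and 9280, with 5 members passing at no fold threshold. The filters test fewer genes, and the other causes were not tested. Deviations from the group means correlated weakly between same-numbered libraries (r of -0.0845 to 0.115). With 3 libraries per group this cannot decide whether the numbers pair them, and the main tests were unpaired. A replicate block gave 4837, 3179 and 4173 DEGs, with 5, 7 and 3 members.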
